A study of Homo sapiens with 28 samples.

Results

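The iron storage, heme and iron transport genes described here are 10 genes: FTH1, FTL, HMOX1, TFRC, SLC40A1, SLC11A2, SLC39A14, NCOA4, IREB2 and ACO1. They are members by symbol, under a rule that sets no threshold on their values although earlier results of these data were known, and all 10 were found among the 25369 named genes of the exon-count tables. All 10 also passed the filter on low counts, which left 14314 genes for testing. The libraries come from LNCaP cells, an established line of metastatic prostate cancer, in which a stress of the endoplasmic reticulum was set with tunicamycin, an inhibitor of N-linked glycosylation. RNA was sequenced from 28 libraries in 7 groups of 4, and the design asks what the PERK kinase and the transcription factor ATF4 contribute to the response.

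Every group carried an siRNA, and every group but 1 received tunicamycin (TM) at 2.5 µg/mL for 18 h. TM siATF4-3 and TM siATF4-2 cells carried different siRNA oligos against ATF4. TM siPERK-3 and TM siPERK-1 cells carried different siRNA oligos against EIF2AK3, the gene of PERK. TM PERKi siCtrl cells carried a non-targeting siRNA and were given tunicamycin and GSK2606414, a PERK inhibitor, at 100 nM. TM siCtrl cells carried the non-targeting siRNA and had tunicamycin alone, and DMSO siCtrl cells carried it and had only the solvent. All groups are 1 cell line, and no siRNA against ATF4 or EIF2AK3 and no inhibitor was combined with DMSO in the libraries analysed here. The labels speak of independent experiments without tying each library to a separate culture, so the p-values measure the spread between these libraries.

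Iron enters most cells bound to transferrin through the transferrin receptor (TFRC), crosses membranes through transporters such as SLC11A2 and SLC39A14, and leaves through ferroportin (SLC40A1). Iron that is not used is held in ferritin, a shell of heavy (FTH1) and light (FTL) chains that is returned to the lysosome by the receptor NCOA4, and heme oxygenase (HMOX1) sets iron free from heme. When iron is scarce, the regulatory proteins encoded by ACO1 and IREB2 bind hairpins called iron-responsive elements, which holds back translation of ferritin and ferroportin and protects the TFRC transcript from decay.

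Iron-responsive elements are the hairpins that ACO1 and IREB2 proteins bind, and matches to a strict form of them are shown for transcripts of the set. They were searched in GENCODE v29 transcripts (GRCh38) as a C, any 5 bases and the loop CAGTGN on the transcript strand, with 5 paired bases, G-T pairs allowed, on each side of a 6-base loop. The loop is in capitals and each site is 27 bases long, read 5′ to 3′. The 5′ UTR site of FTL is at chr19:48965336-48965362 on the plus strand and that of SLC40A1 at chr2:189580662-189580688 on the minus strand. The 4 matches found in the TFRC 3′ UTR lie on the minus strand at chr3:196050980-196051006, chr3:196050576-196050602, chr3:196050511-196050537 and chr3:196050464-196050490, in the order of the transcript.
FTL 5′ UTR: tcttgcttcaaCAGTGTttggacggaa
SLC40A1 5′ UTR: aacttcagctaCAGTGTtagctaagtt
TFRC 3′ UTR, site 1: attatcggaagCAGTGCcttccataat
TFRC 3′ UTR, site 2: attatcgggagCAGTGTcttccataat
TFRC 3′ UTR, site 3: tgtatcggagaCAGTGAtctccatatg
TFRC 3′ UTR, site 4: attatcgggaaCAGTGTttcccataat
Of 19669 protein-coding genes searched, 21 (0.107%) had such a match in the 5′ UTR and 100 (0.508%) in the 3′ UTR. The transcripts searched of ACO1, IREB2, NCOA4 and SLC11A2 held none of these letters with that pairing. Elements with other letters or pairing, or in other transcripts of a gene, would be missed. For FTH1, HMOX1 and SLC39A14 the result of the search was not read out gene by gene, so a site is neither shown nor denied for them.

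Libraries held 10794637 to 17253801 counts each, and each pair of libraries within a group differed by more than sampling noise (chi-square per degree of freedom 1.69 to 8.03). The targeted genes followed the labels. ATF4 averaged 114 ± 18.96 and 237 ± 82.4 CPM (counts scaled to library size) with TM siATF4-3 and TM siATF4-2, against 1511 ± 37.4 CPM in TM siCtrl cells (SD, n = 4 each). EIF2AK3 averaged 21.5 ± 2.14 and 24.6 ± 3.996 CPM with TM siPERK-3 and TM siPERK-1, against 89.2 ± 6.51 CPM in TM siCtrl cells (SD, n = 4 each). All 8 luminal prostate markers were detected. Their summed level per library was 2843 to 3080 CPM with TM siATF4-3, 2431 to 2703 CPM with TM siATF4-2, 1757 to 2247 CPM with the PERK siRNAs, 985 to 1243 CPM with TM PERKi siCtrl, 1898 to 2074 CPM in TM siCtrl cells and 4983 to 5975 CPM in DMSO siCtrl cells. The 6 fibroblast markers summed to 14.4 to 21.5 CPM with TM siATF4-3, 15.5 to 24.1 CPM with TM siATF4-2, 29.9 to 38.7 CPM with the PERK siRNAs, 31.5 to 41.5 CPM with TM PERKi siCtrl, 33.2 to 39.7 CPM in TM siCtrl cells and 18.5 to 22.7 CPM in DMSO siCtrl cells. Most of that is COL1A1, at 13.9 to 40.3 CPM, while COL1A2 had 0 counts and DCN at most 0.0747 CPM. Over all libraries the 4 endothelial markers summed to 10.04 to 19.2 CPM, of which VWF held 8.74 to 18.3 CPM, with CDH5 at most 0.0914 CPM. The 7 leukocyte markers summed to 4.42 to 8.42 CPM, the 4 basal epithelial markers to at most 1.49 CPM and the 6 erythroid markers to at most 0.306 CPM. The fibroblast sum is high and low in the same groups as FTH1, but it rests mostly on COL1A1 in libraries of 1 cell line. COL3A1, LUM and PDGFRB reached at most 0.881, 0.822 and 1.15 CPM in any library. The part of these marker shifts in the results was not tested. In bulk RNA, fewer cells of a kind and less RNA per cell cannot be told apart.

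Tunicamycin raised the ferritin heavy chain, heme oxygenase and the transporter SLC39A14 and lowered the transferrin receptor, and the ATF4 siRNAs lowered FTH1 and HMOX1 but left SLC39A14 above its DMSO level. Calls are made at an adjusted p under 0.05 from edgeR's quasi-likelihood test over all 14314 genes. Against DMSO siCtrl, TM siCtrl cells had 5 of the 10 genes higher and 3 lower, where 34.3% of all genes tested were higher, 34.7% lower and 69.0% either. The shares of all genes higher and lower follow each count in brackets. Against TM siCtrl, TM siATF4-3 cells had 1 higher and 4 lower (31.2% and 30.7% of all genes, 61.9% together), and TM siATF4-2 cells 1 higher and 6 lower (28.4% and 27.2% of all genes, 55.6% together). TM siPERK-3 cells had 2 higher and 1 lower (13.1% and 13.7% of all genes, 26.8% together), and TM siPERK-1 cells 3 higher and 2 lower (13.1% and 13.3% of all genes, 26.4% together). TM PERKi siCtrl cells had 2 higher and 2 lower (18.2% and 17.5% of all genes, 35.7% together). The share of the 10 genes called was further from the background in some comparisons than in others, as with the 5 of 10 for TM siPERK-1, and nothing is read from these counts. What follows concerns the direction and size for each gene. Against TM siCtrl, the median log2 change of the 10 genes was -0.23 with TM siATF4-3, -0.28 with TM siATF4-2, 0.07 with TM siPERK-3, 0.05 with TM siPERK-1 and -0.01 with TM PERKi siCtrl. It was 0.15 for TM siCtrl against DMSO siCtrl. Over all genes the median was within 0.01 of 0 in each. Genes of the set moved in both directions, so the median describes no shared shift.

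**Figure D1:**
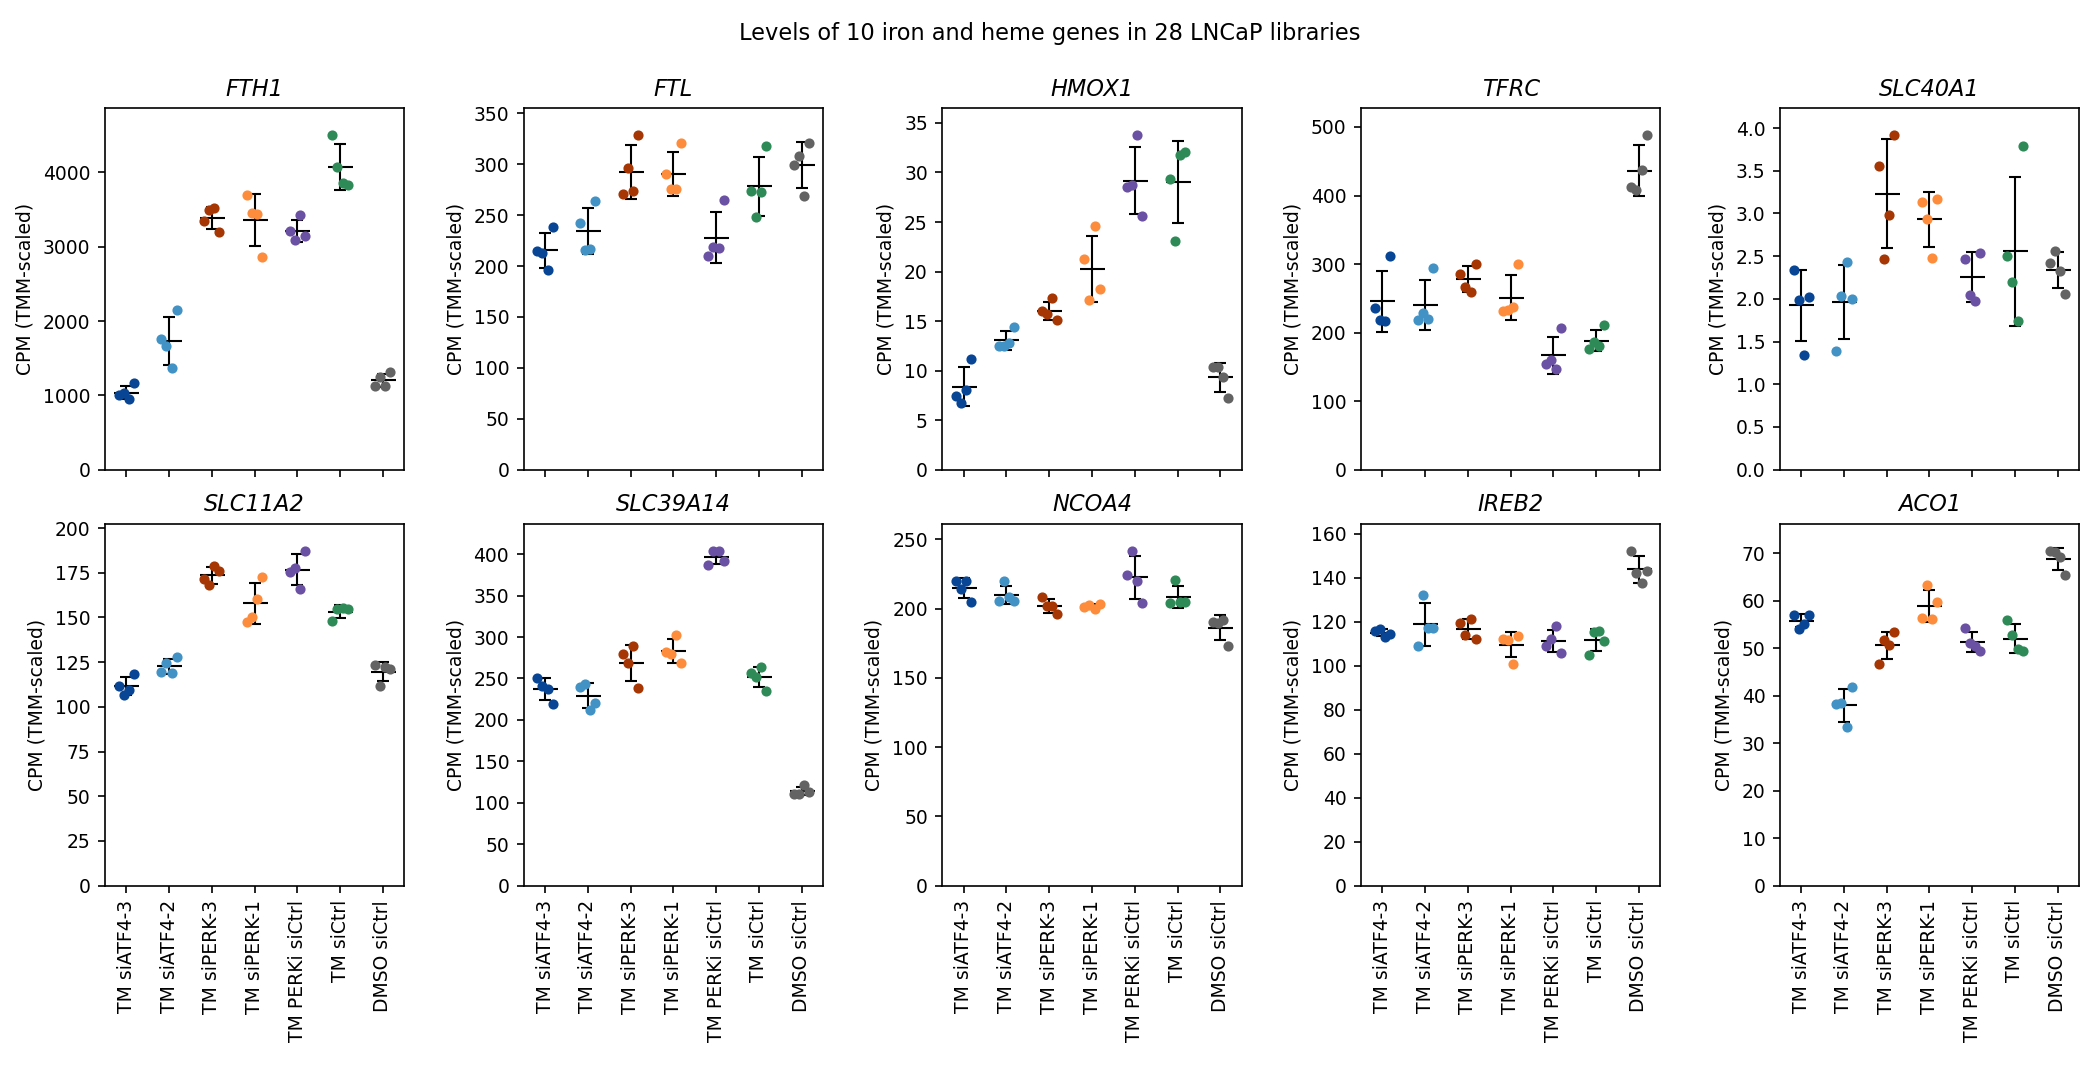
CPM on the vertical axis, from 0, in 4 libraries of each of 7 groups, 1 panel a gene. Points are libraries, the bar is the mean and the whiskers are 1 SD. FTH1 and HMOX1 are high in the TM siCtrl group and close to the DMSO siCtrl level with TM siATF4-3, TFRC is highest in DMSO siCtrl cells, and SLC39A14 is highest with TM PERKi siCtrl.

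**Figure D2:**
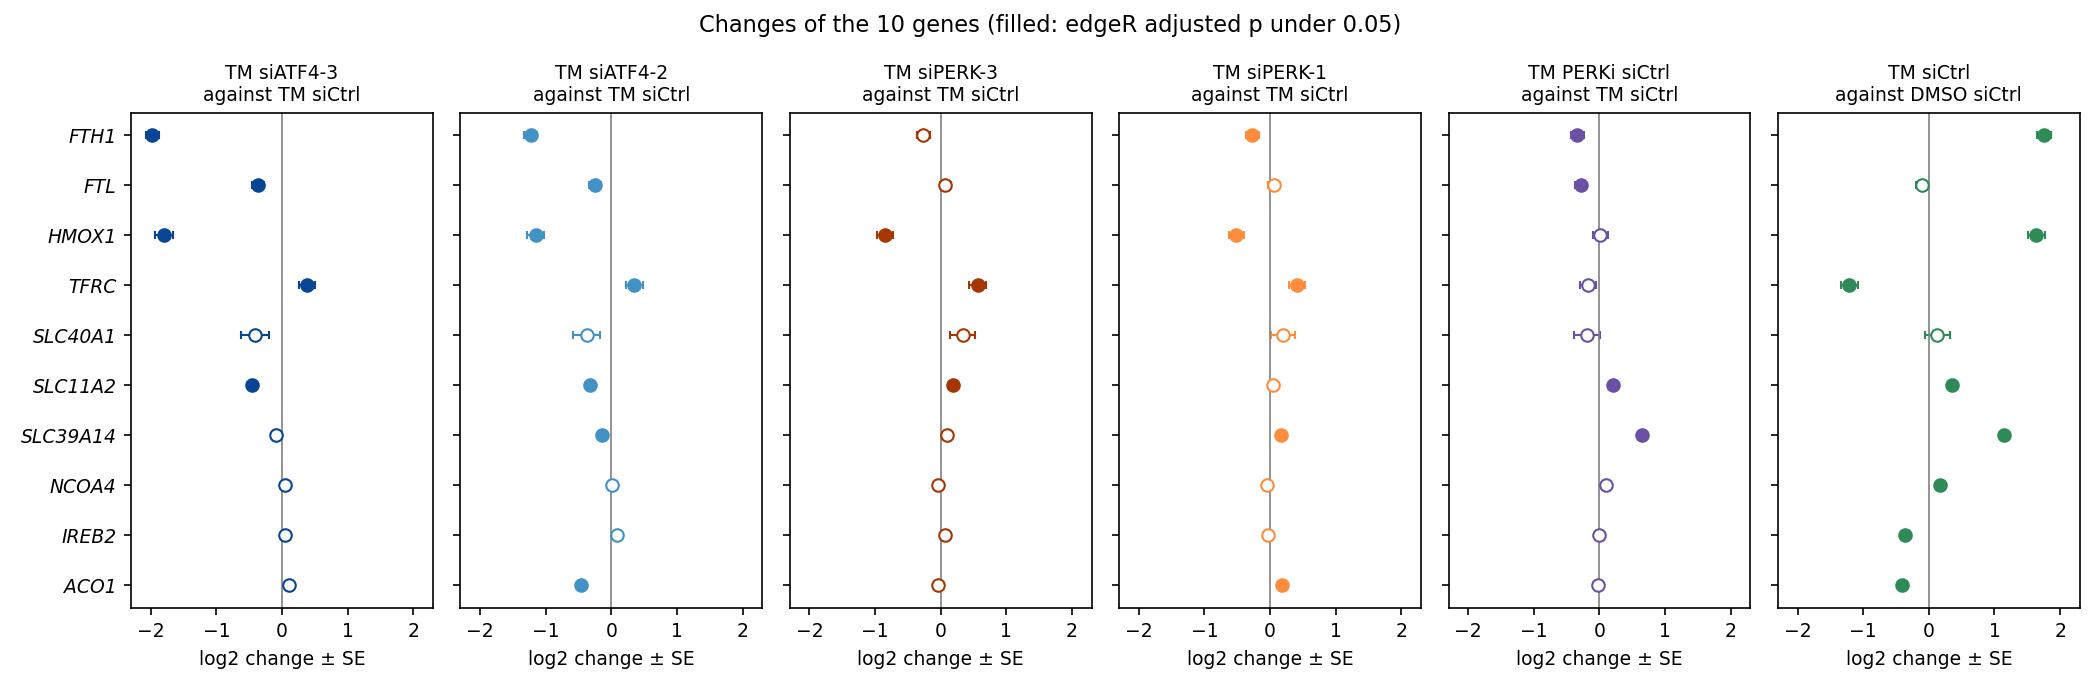
Log2 change with its SE for each of the 10 genes in 6 comparisons, on 1 scale. Filled points are called at an adjusted p under 0.05 by edgeR and open points are not. FTH1 and HMOX1 lie to the left with the ATF4 siRNAs (-1.98 and -1.80 with TM siATF4-3) and to the right with tunicamycin (1.76 and 1.64).

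FTH1 encodes the ferritin heavy chain, which oxidises iron as it enters the shell (hg19 chromosome 11, 61731757 to 61735132, minus strand, counted over 1229 bases of exon). Its level was 4505, 4067, 3860.2 and 3835 CPM in the TM siCtrl libraries, against 1132, 1242, 1128 and 1313 CPM in the DMSO siCtrl libraries. The groups are far apart, with every TM siCtrl library above every DMSO siCtrl library, and the change was 1.76 ± 0.10 on the log2 scale (SE, adjusted p = 2.67e-13), or 3.38-fold.

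With the ATF4 siRNAs FTH1 was low again. It stood at 1001, 1026, 950.4 and 1161 CPM in the TM siATF4-3 libraries and at 1764, 1662, 1362 and 2148 CPM in the TM siATF4-2 libraries. All 8 lie below every TM siCtrl library, and the TM siATF4-3 libraries also reach under the lowest DMSO siCtrl library. The log2 change against TM siCtrl was -1.98 ± 0.10 with TM siATF4-3 (adjusted p = 7.09e-14) and -1.23 ± 0.10 with TM siATF4-2 (adjusted p = 4.23e-10). Against DMSO siCtrl, FTH1 with TM siATF4-3 differed by -0.22 ± 0.10 (95% interval -0.42 to -0.02, adjusted p = 0.0674), which misses the threshold, while TM siATF4-2 left it 0.53 ± 0.10 above DMSO siCtrl (adjusted p = 8.64e-05). The first of these crosses the threshold under 3 of the alternative settings or library sets.

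With the PERK inhibitor and the PERK siRNAs the FTH1 changes were smaller in size. The TM PERKi siCtrl libraries held 3209.5, 3094, 3427 and 3137 CPM, all below the TM siCtrl libraries, with a log2 change of -0.34 ± 0.10 (adjusted p = 0.0101). TM siPERK-3 libraries held 3339.7, 3492, 3518 and 3192 CPM and TM siPERK-1 libraries 3698, 3450.2, 3437 and 2866 CPM. Each of these 8 is also under the lowest TM siCtrl library, but the test stands at its threshold: -0.26 ± 0.10 with TM siPERK-3 (adjusted p = 0.053) and -0.27 ± 0.10 with TM siPERK-1 (adjusted p = 0.0452). The TM siPERK-1 call is lost in 9 of 15 alternatives, with adjusted p = 0.16 without its replicate 4 and 0.14 without TM siCtrl replicate 1. The TM siPERK-3 change is called by limma-voom (adjusted p = 0.0436) and DESeq2's Wald test (adjusted p = 0.0154), and also when only the compared groups are fitted (adjusted p = 0.00021).

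FTL encodes the light chain, which aids the forming of the iron core (chromosome 19, 49468566 to 49470136, plus strand, 871 bases of exon). It held 274, 249, 272 and 318 CPM in TM siCtrl libraries and 299, 308, 269 and 321 CPM in DMSO siCtrl libraries. These ranges overlap, and the log2 change was -0.11 ± 0.09 (95% interval -0.28 to 0.07, adjusted p = 0.282). Against TM siCtrl, FTL was lower with TM siATF4-3 (-0.37 ± 0.09, adjusted p = 0.000733) at 215, 213, 196 and 238 CPM, a range that lies under all 4 TM siCtrl libraries. With TM siATF4-2 it held 242, 216, 216 and 263 CPM and with TM PERKi siCtrl 210.3, 219, 217 and 265 CPM, both overlapping TM siCtrl at their highest library. Those changes were -0.25 ± 0.09 with TM siATF4-2 (adjusted p = 0.0181) and -0.29 ± 0.09 with TM PERKi siCtrl (adjusted p = 0.0114). Without TM siCtrl replicate 4 neither is called (-0.19, adjusted p = 0.0744 with TM siATF4-2, and -0.22, adjusted p = 0.0564 with TM PERKi siCtrl). The TM siATF4-2 call is also lost without its own replicate 2 (-0.21, adjusted p = 0.0683) or replicate 3 (-0.21, adjusted p = 0.0667). FTL held 292 ± 26.9 CPM with TM siPERK-3 and 291 ± 21.6 CPM with TM siPERK-1 (SD, n = 4 each), and neither was called against TM siCtrl.

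The mean ratio of heavy to light chain transcripts was highest in TM siCtrl cells and lowest in DMSO siCtrl cells. Per length, in RPKM, FTH1 stood at 3309 ± 252 and FTL at 319 ± 33.4 in TM siCtrl cells, against 979 ± 73.2 and 344 ± 25.7 in DMSO siCtrl cells (SD, n = 4 each). The ratio of FTH1 to FTL per library was 10.5 ± 1.48 in TM siCtrl cells and 2.85 ± 0.125 in DMSO siCtrl cells. It was 3.40 ± 0.0671 with TM siATF4-3, 5.22 ± 0.561 with TM siATF4-2, 8.27 ± 0.981 with TM siPERK-3, 8.27 ± 1.30 with TM siPERK-1 and 10.1 ± 1.23 with TM PERKi siCtrl (SD, n = 4 each). The TM siATF4-3 libraries (3.30 to 3.45) do not meet the TM siCtrl libraries (8.54 to 11.7) and lie just above the DMSO siCtrl libraries (2.68 to 2.98). TM PERKi siCtrl (8.40 to 11.2), TM siPERK-3 (6.88 to 9.12) and TM siPERK-1 (6.32 to 9.03) libraries overlap those of TM siCtrl. These ratios are a description and were given no test. Ferritin has many processed copies in the genome, 25 pseudogenes for FTH1 and 16 for FTL in GENCODE v29, and reads that fit several copies may be lost or misplaced. Only 3 rows of heavy chain copies or relatives (FTH1P3, FTHL17 and FTH1P18) and 1 of a light chain copy (FTLP10) were counted. They hold 0.123% of the counts of FTH1 and 0.138% of those of FTL. Copies without a row cannot be seen there, so these shares do not measure lost or misplaced reads. FTH1 also shares 179 exon bases with BEST1 on the opposite strand, which totals 12097 counts over the 28 libraries beside 1000842 for FTH1. Per library, BEST1 had 711 to 753 counts in TM siCtrl, 59 to 140 in DMSO siCtrl and 59 to 112 with TM siATF4-3. It had 298 to 383 with TM siATF4-2, 465 to 562 with TM siPERK-3, 480 to 661 with TM siPERK-1 and 614 to 848 with TM PERKi siCtrl. The strand setting of the counting is not given in the sources used here, and sharing of reads between both genes was not tested.

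**Figure D3:**
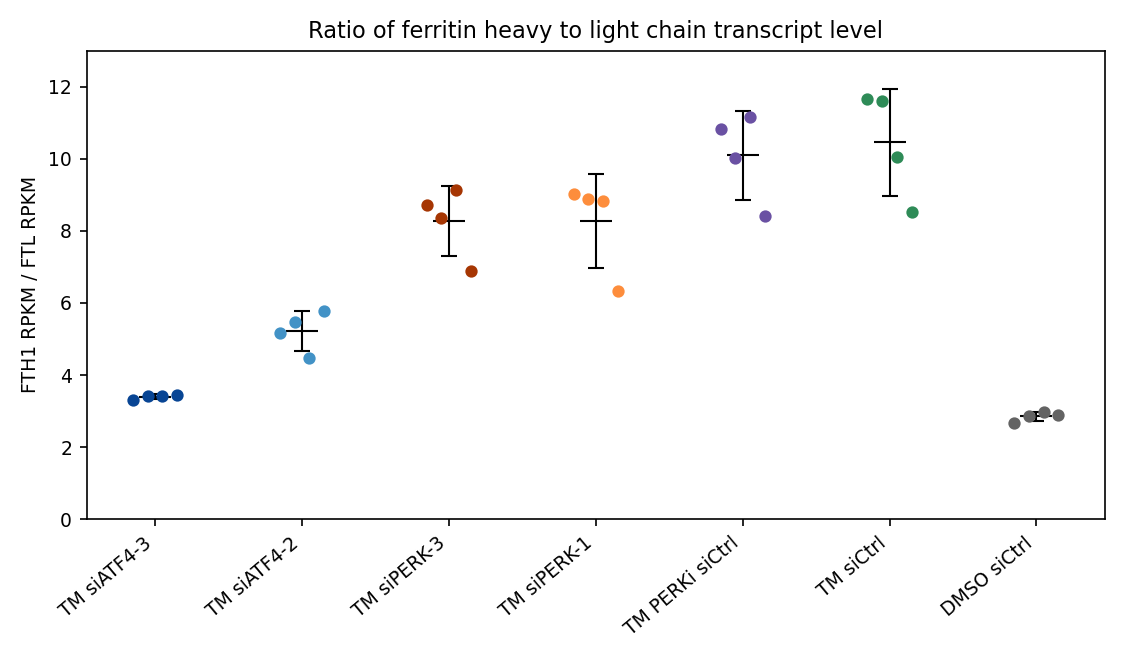
Ratio of the FTH1 to the FTL level per library, each in RPKM, from 0, for 7 groups of 4 libraries, with the mean and 1 SD. TM siCtrl libraries sit between 8.54 and 11.7 and DMSO siCtrl libraries between 2.68 and 2.98, with TM siATF4-3 at 3.30 to 3.45.

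HMOX1, the inducible heme oxygenase that opens the heme ring (chromosome 22, 35777060 to 35790207, plus strand), was a low transcript beside ferritin. It held 29.4, 23.1, 31.7 and 32.1 CPM in TM siCtrl libraries, against 10.3, 10.4, 9.37 and 7.24 CPM in DMSO siCtrl libraries. The lowest TM siCtrl library is still above the highest DMSO siCtrl library, and the log2 change was 1.64 ± 0.13 (adjusted p = 7.25e-13). With TM siATF4-3 it held 7.48, 6.68, 8.07 and 11.2 CPM and with TM siATF4-2 12.5, 12.5, 12.8 and 14.4 CPM. Both groups lie under all TM siCtrl libraries, with changes of -1.80 ± 0.14 (adjusted p = 1.04e-12) and -1.15 ± 0.13 (adjusted p = 4.17e-09). The TM siATF4-3 libraries overlap those of DMSO siCtrl, from which they differed by -0.16 ± 0.15 (95% interval -0.47 to 0.15, adjusted p = 0.4).

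HMOX1 differed between the inhibitor and the PERK siRNAs. It held 15.99, 15.8, 17.3 and 15.1 CPM with TM siPERK-3 and 21.2, 17.1, 24.6 and 18.2 CPM with TM siPERK-1. The first range lies wholly under TM siCtrl and the second meets it at its highest library. The changes were -0.85 ± 0.12 (adjusted p = 4.12e-06) and -0.51 ± 0.12 (adjusted p = 0.00142). With TM PERKi siCtrl it held 28.5, 28.7, 33.8 and 25.6 CPM, within or just above the TM siCtrl range, a difference of 0.01 ± 0.12 (95% interval -0.22 to 0.24). Set directly against the mean of both PERK siRNA groups, the inhibitor group was higher by 0.70 ± 0.10 (adjusted p = 1.6e-06).

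TFRC, the receptor that takes up transferrin-bound iron (chromosome 3, 195776155 to 195809032, minus strand, 5295 bases of exon), moved the opposite way. It held 177, 186, 179.8 and 211 CPM in TM siCtrl libraries, against 412, 409, 437 and 489 CPM in DMSO siCtrl libraries. The highest TM siCtrl library is under the lowest DMSO siCtrl library, and the log2 change was -1.21 ± 0.13 (adjusted p = 1.18e-08), 2.32-fold lower. All siRNA groups lay above TM siCtrl. TFRC held 236, 218, 217 and 311 CPM with TM siATF4-3, 219, 228, 219 and 294 CPM with TM siATF4-2, 286, 267, 259 and 301 CPM with TM siPERK-3 and 232, 234, 237 and 300.1 CPM with TM siPERK-1. Each of these 16 libraries is above the highest TM siCtrl library and below the lowest DMSO siCtrl library. The changes against TM siCtrl were 0.38 ± 0.13 (adjusted p = 0.0117), 0.35 ± 0.13 (adjusted p = 0.0226), 0.56 ± 0.13 (adjusted p = 0.00182) and 0.41 ± 0.13 (adjusted p = 0.0185) in the same order. The TM PERKi siCtrl libraries, at 154, 159.8, 147 and 207 CPM, overlap TM siCtrl (-0.17 ± 0.13, adjusted p = 0.319). Against the mean of the PERK siRNA groups the inhibitor group had a log2 difference of -0.66 ± 0.11 (adjusted p = 3.69e-05).

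Some of the TFRC calls with siRNA are lost when 1 library is left out. Without replicate 4 of the siRNA group itself, the change was 0.25, adjusted p = 0.0784 with TM siATF4-3, 0.24, adjusted p = 0.115 with TM siATF4-2 and 0.32, adjusted p = 0.0847 with TM siPERK-1. Without TM siCtrl replicate 1 the call was lost with TM siATF4-2 (0.32, adjusted p = 0.0602) and TM siPERK-1 (0.38, adjusted p = 0.0522), and without TM siCtrl replicate 3 with TM siATF4-2 (0.33, adjusted p = 0.054). The TM siPERK-3 call stood in each alternative. The calls stood in 14 of 15 alternatives with TM siATF4-3, 12 of 15 with TM siATF4-2 and 13 of 15 with TM siPERK-1. All of these siRNA calls stood with the replicate number as a block. Leaving out replicate 4 of an siRNA group kept replicate 4 of TM siCtrl, so those fits are uneven in replicate number. Replicate 4 was the highest library for TFRC in 7 of 7 groups, at 1.11 to 1.39 times the mean of the other libraries of its group, and for FTL also in 7 of 7 groups, at 1.1 to 1.23 times. For NCOA4 it was the lowest in 5 of 7 groups. After group means were taken out, TFRC and FTL correlated at r = 0.761 over the 28 libraries, a description that shares libraries and depth. With the replicate number as a block, TFRC was also called lower with TM PERKi siCtrl than with TM siCtrl (-0.18, adjusted p = 0.00192). The block likewise called it lower with TM siPERK-1 than with TM siPERK-3 (-0.16, adjusted p = 0.0259). What lies behind the replicate 4 pattern was not tested.

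**Figure D4:**
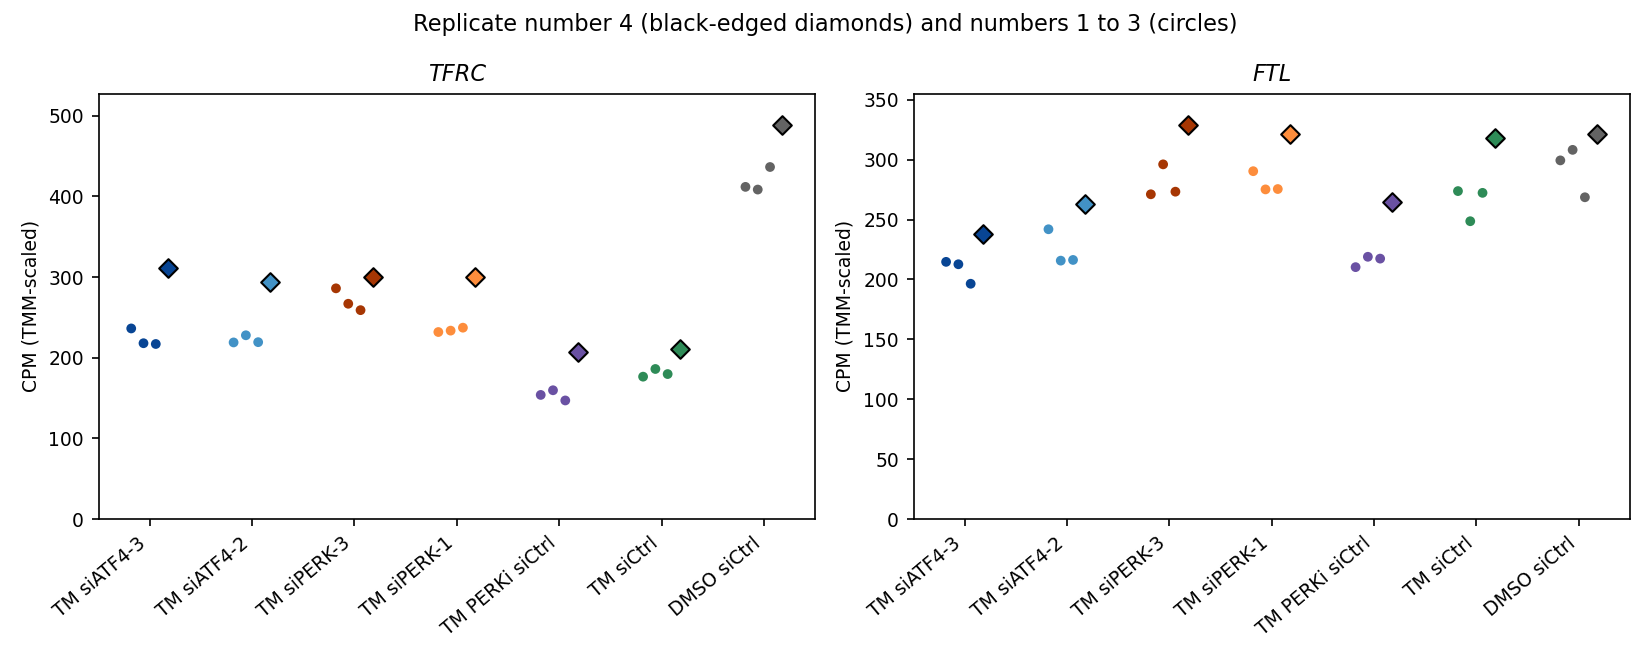
TFRC and FTL in CPM, from 0, in 7 groups of 4 libraries. Diamonds with a black edge are replicate 4 and circles replicates 1 to 3. The diamond is the highest point of its group in 7 of 7 groups for both genes.

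SLC39A14, a transporter of zinc, manganese and iron not bound to transferrin (chromosome 8, 22224762 to 22291640, plus strand), rose with tunicamycin and rose further with the PERK inhibitor. It held 387, 404, 404 and 391 CPM in TM PERKi siCtrl libraries, against 256, 252, 264 and 235 CPM in TM siCtrl libraries, which in turn stand against 111, 111, 121 and 113 CPM in DMSO siCtrl libraries. The 3 groups do not meet. The log2 change was 0.66 ± 0.05 for the inhibitor against tunicamycin alone (adjusted p = 4.3e-13) and 1.14 ± 0.05 for tunicamycin against DMSO (adjusted p = 1.28e-21). The changes with the PERK siRNAs were smaller: 0.09 ± 0.05 with TM siPERK-3 (adjusted p = 0.191) and 0.17 ± 0.05 with TM siPERK-1 (adjusted p = 0.0136), and the inhibitor stood 0.52 ± 0.04 above their mean (adjusted p = 9.64e-13). The TM siPERK-1 call is lost without its replicate 3 (0.14, adjusted p = 0.0742) and on leaving out TM siCtrl replicate 4 (0.14, adjusted p = 0.0672), and TM siPERK-3 is called without its replicate 4 (0.15, adjusted p = 0.0357).

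Against TM siCtrl, SLC39A14 lay within or near the TM siCtrl range with the ATF4 siRNAs, at 251, 241, 237 and 219 CPM with TM siATF4-3 and 240.0, 243, 212 and 220.1 CPM with TM siATF4-2. Both ranges overlap TM siCtrl. The changes were -0.09 ± 0.05 (adjusted p = 0.149) and -0.14 ± 0.05 (adjusted p = 0.0258), and the second is lost without any of 4 single libraries (TM siATF4-2 replicate 3 or 4, TM siCtrl replicate 1 or 3), with an adjusted p of up to 0.126. The first is called with upper-quartile scaling (-0.12, adjusted p = 0.0456) and also if replicate 4 of TM siCtrl is dropped (-0.13, adjusted p = 0.0402). Both groups were above DMSO siCtrl, by 1.05 ± 0.05 (adjusted p = 7.07e-20) and 1.00 ± 0.05 (adjusted p = 2.48e-19).

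SLC11A2 encodes DMT1, which moves ferrous iron across the endosome and the gut cell surface (chromosome 12, 51373566 to 51422058, minus strand). It held 148, 155, 155 and 155 CPM in TM siCtrl libraries and 124, 112, 122 and 121 CPM in DMSO siCtrl libraries, apart in all 8, with a log2 change of 0.35 ± 0.05 (adjusted p = 2.01e-08). With the ATF4 siRNAs it stood at 112, 106, 109.5 and 118 CPM (TM siATF4-3) and 119, 124, 119 and 128 CPM (TM siATF4-2). These lie under TM siCtrl and overlap DMSO siCtrl. The changes against TM siCtrl were -0.46 ± 0.05 (adjusted p = 1.12e-10) and -0.32 ± 0.05 (adjusted p = 4e-07). It was higher than TM siCtrl with TM siPERK-3 (0.18 ± 0.05, adjusted p = 0.00388) and with TM PERKi siCtrl (0.21 ± 0.05, adjusted p = 0.000675), and differed by 0.04 ± 0.05 with TM siPERK-1 (adjusted p = 0.559). SLC11A2 is known to have transcripts with and without an iron-responsive element, which counts per gene cannot separate.

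SLC40A1, the sole known iron exporter of mammalian cells (chromosome 2, 190425316 to 190445537, minus strand), was scarce, with 15 to 57 counts per library. It held 2.50, 2.20, 1.74 and 3.78 CPM in TM siCtrl libraries and 2.42, 2.56, 2.33 and 2.06 CPM in DMSO siCtrl libraries, ranges that overlap (0.13 ± 0.19, 95% interval -0.25 to 0.51). None of the 5 comparisons with TM siCtrl called it, with intervals as wide as -0.83 to 0.02 for TM siATF4-3. Without TM siCtrl replicate 3 it is called lower with TM siATF4-3 (-0.54, adjusted p = 0.0281) and TM siATF4-2 (-0.50, adjusted p = 0.0406), and without TM siCtrl replicate 4 it is called higher with TM siPERK-3 (0.57, adjusted p = 0.0258).

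NCOA4, which carries ferritin to the lysosome (chromosome 10, 51565108 to 51590734, plus strand), varied least among the 10 genes, its highest group mean being 1.20 times its lowest. It held 204, 221, 205 and 205 CPM in TM siCtrl libraries, against 191, 189.5, 192 and 173 CPM in DMSO siCtrl libraries. The groups do not overlap, and the log2 change was 0.16 ± 0.04 (adjusted p = 0.00134). No siRNA or inhibitor group was called against TM siCtrl, with changes between -0.05 and 0.09. The inhibitor difference of 0.09 ± 0.05 is called without TM PERKi siCtrl replicate 4 (0.13, adjusted p = 0.0242) or TM siCtrl replicate 2 (0.12, adjusted p = 0.0479).

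The regulators IREB2 (chromosome 15, 78730518 to 78793798, plus strand) and ACO1 (chromosome 9, 32384601 to 32450832, plus strand) were lower with tunicamycin. IREB2 held 105, 115, 116 and 111 CPM in TM siCtrl libraries, against 152, 142, 137 and 143 CPM in DMSO siCtrl libraries, with no overlap (-0.36 ± 0.05, adjusted p = 2.72e-08). No comparison with TM siCtrl called IREB2, and its changes there ran from -0.03 to 0.09. It was called only with TM siATF4-2 when that group's replicate 1 was left out (0.13, adjusted p = 0.0387).

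ACO1, whose protein is an aconitase when it holds an iron-sulfur cluster, held 55.9, 52.9, 49.9 and 49.5 CPM in TM siCtrl libraries and 70.6, 70.3, 69.2 and 65.5 CPM in DMSO siCtrl libraries. These do not overlap (-0.40 ± 0.06, adjusted p = 3.7e-08). The ATF4 siRNAs differed here. It held 38.2, 38.5, 33.5 and 41.9 CPM with TM siATF4-2, under every TM siCtrl library, and 57.03, 54.2, 55.2 and 57.1 CPM with TM siATF4-3, overlapping them. The changes were -0.46 ± 0.06 (adjusted p = 2.2e-08) with TM siATF4-2 and 0.10 ± 0.06 (adjusted p = 0.133) with TM siATF4-3, and TM siATF4-2 stood -0.56 ± 0.06 against TM siATF4-3 (adjusted p = 9.1e-09). The PERK siRNAs also differed, TM siPERK-1 against TM siPERK-3 by 0.22 ± 0.06 (adjusted p = 0.0194), and TM siPERK-1 was 0.18 ± 0.06 above TM siCtrl (adjusted p = 0.0173). Both calls are lost without TM siPERK-1 replicate 2 (0.18, adjusted p = 0.101 and 0.14, adjusted p = 0.085). The first is also lost without TM siPERK-3 replicate 1 (0.18, adjusted p = 0.116), and the second without TM siCtrl replicate 3 (0.16, adjusted p = 0.0606) or 4 (0.15, adjusted p = 0.0648).

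The ATF4 and PERK siRNA groups were also set directly against each other. The ATF4 transcript averaged 1158 ± 42.7 CPM with TM siPERK-3 and 1415 ± 40.4 CPM with TM siPERK-1, against 1511 ± 37.4 CPM in TM siCtrl cells. Neither change was called, although both ranges lie under TM siCtrl. EIF2AK3 averaged 21.5 ± 2.14 and 24.6 ± 3.996 CPM with these siRNAs, beside 30.2 ± 0.742 CPM in DMSO siCtrl cells (SD, n = 4 each). The part of unequal knockdown in the differences below was not tested. The mean of the ATF4 siRNA groups had 1 of the 10 genes higher and 7 lower than the mean of the PERK siRNA groups (31.6% and 32.3% of all genes, 63.9% together). The log2 difference of FTH1 was -1.33 ± 0.07 (adjusted p = 1.06e-13) and that of HMOX1 -0.79 ± 0.10 (adjusted p = 4.01e-08). For SLC40A1 it was -0.66 ± 0.15 (adjusted p = 0.000169) and for SLC11A2 -0.50 ± 0.03 (adjusted p = 5.44e-16). FTL (-0.38 ± 0.06), SLC39A14 (-0.25 ± 0.04) and ACO1 (-0.25 ± 0.04) were lower as well. NCOA4 was higher by 0.07 ± 0.03 (adjusted p = 0.0428), a call that 14 of 23 alternatives lose. TFRC was not called (-0.12 ± 0.09, 95% interval -0.30 to 0.06), but is called lower without TM siATF4-3 replicate 4 (-0.19, adjusted p = 0.0491) and with the replicate number as a block (-0.13, adjusted p = 0.000781). The oligos against ATF4 differed in 3 of the 10 genes, 2 higher and 1 lower (8.53% and 6.20% of all genes, 14.7% together): FTH1 and HMOX1 were 0.75 ± 0.10 and 0.64 ± 0.15 higher with TM siATF4-2 than with TM siATF4-3 (adjusted p = 1.67e-05 and adjusted p = 0.0038), and ACO1 was lower. ATF4 itself was higher in TM siATF4-2 cells, at 237 ± 82.4 CPM against 114 ± 18.96 CPM in TM siATF4-3 cells, and the part of that remainder in the difference was not tested. SLC11A2 just missed the threshold between the ATF4 oligos (0.14 ± 0.05, adjusted p = 0.0549), with every TM siATF4-2 library above every TM siATF4-3 library. That difference stays uncalled in 12 of 15 alternatives and is called higher with TM siATF4-2 in the rest. Between the PERK oligos, ACO1 alone of the 10 genes was called, higher with TM siPERK-1 (2.24% and 2.49% of all genes, 4.73% together). Over all genes that comparison had 321 higher and 356 lower, and 406 higher and 269 lower with upper-quartile scaling.

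The inhibitor and the PERK siRNAs also differed directly in 6 of the 10 genes, 3 higher and 3 lower with TM PERKi siCtrl (25.8% and 26.1% of all genes, 51.9% together). Beside HMOX1, SLC39A14 and TFRC above, FTL was -0.35 ± 0.08 (adjusted p = 0.00038), NCOA4 0.14 ± 0.04 (adjusted p = 0.00256) and SLC40A1 -0.45 ± 0.18 (adjusted p = 0.0301) against the mean of the PERK siRNA groups. The SLC40A1 call is lost in 4 alternatives. FTH1 was not called, with a difference of -0.07 ± 0.09 (95% interval -0.24 to 0.11). SLC11A2 just missed the threshold (0.09 ± 0.04, adjusted p = 0.0543). It stays uncalled in 13 of 19 alternatives and is called higher in the rest. The EIF2AK3 transcript averaged 125 ± 4.25 CPM in TM PERKi siCtrl cells, above the 89.2 ± 6.51 CPM of TM siCtrl cells.

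Against the DMSO siCtrl libraries, the 5 siRNA and inhibitor groups had 6 to 9 of the 10 genes called. TM siATF4-3 cells had 2 of the 10 genes higher and 4 lower (28.1% and 29.3% of all genes, 57.4% together), and TM siATF4-2 cells 4 higher and 4 lower (29.7% and 30.0% of all genes, 59.7% together). TM siPERK-3 cells had 6 higher and 3 lower (30.4% and 31.5% of all genes, 61.9% together), and TM siPERK-1 cells 5 higher and 3 lower (31.6% and 32.3% of all genes, 63.9% together). TM PERKi siCtrl cells had 5 higher and 4 lower (35.0% and 37.9% of all genes, 72.9% together). TFRC, IREB2 and ACO1 were lower and SLC39A14 and NCOA4 higher than DMSO siCtrl in all 5 groups, and these comparisons share their DMSO libraries. NCOA4 loses its call without DMSO siCtrl replicate 4 with TM siPERK-1 (0.08, adjusted p = 0.128) and TM siPERK-3 (0.08, adjusted p = 0.116), and for TM siPERK-3 also without that group's replicate 1 (0.11, adjusted p = 0.064). SLC40A1 was called higher only with TM siPERK-3 (0.47 ± 0.19, adjusted p = 0.0316), a call that each of 4 single libraries ends (DMSO siCtrl replicate 3 or 4, TM siPERK-3 replicate 1 or 4). TFRC was -0.83 ± 0.12 with TM siATF4-3, -0.86 ± 0.12 with TM siATF4-2, -0.65 ± 0.12 with TM siPERK-3, -0.80 ± 0.12 with TM siPERK-1 and -1.39 ± 0.13 with TM PERKi siCtrl. HMOX1 was -0.16 ± 0.15, 0.49 ± 0.14, 0.79 ± 0.14, 1.12 ± 0.13 and 1.65 ± 0.13 in the same order, called in all but the first.

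Per length, FTH1 and then FTL were the most abundant of the 10 genes in every group, and SLC40A1 was the scarcest. In DMSO siCtrl cells they were followed by TFRC at 82.4 ± 6.98 RPKM, NCOA4 at 45.6 ± 2.21 RPKM and IREB2 at 22.6 ± 0.971 RPKM (SD, n = 4 each). Ordered by mean CPM, neighbouring groups mostly overlapped: for FTL and SLC40A1 all 6 neighbouring pairs of groups did, for SLC11A2, NCOA4 and IREB2 5 of 6 did, and for FTH1 3 of 6.

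Other genes of iron and heme handling were read from 5 lists of 79 genes, of which 70 could be tested. Of these, 17 were higher and 30 lower in TM siCtrl than in DMSO siCtrl cells, or 67.1% called beside 69.0% of all genes tested. In the iron uptake and transport list, 4 of 13 rose and 8 fell with tunicamycin (34.3% and 34.7% of all genes). LCN2, a secreted protein that binds iron-loaded siderophores, had 327 to 419 counts per TM siCtrl library, against 0 to 4 per DMSO siCtrl library. It fell with the ATF4 siRNAs to 2 to 12 counts per library with TM siATF4-3 and 10 to 44 with TM siATF4-2 (log2 changes -5.65 ± 0.32, adjusted p = 5.96e-14, and -3.91 ± 0.25, adjusted p = 1.32e-12). LCN2 also fell, by less, with TM siPERK-3 (-0.80 ± 0.17, adjusted p = 0.00108) and TM siPERK-1 (-0.53 ± 0.17, adjusted p = 0.0207). STEAP4, a metalloreductase, fell with tunicamycin (-2.74 ± 0.25, adjusted p = 5.93e-13), as did the second transferrin receptor TFR2 (-1.86 ± 0.39, adjusted p = 5.11e-05), which has at most 21 counts in any library. STEAP3, the endosomal ferrireductase of the transferrin cycle, rose with both PERK siRNAs (1.35 ± 0.09, adjusted p = 2.1e-15, with TM siPERK-3 and 1.44 ± 0.08, adjusted p = 1.29e-16, with TM siPERK-1). It rose by less with TM PERKi siCtrl (0.56 ± 0.09, adjusted p = 3.44e-06) and TM siATF4-3 (0.51 ± 0.09, adjusted p = 4.46e-06). SLC39A8, a close relative of SLC39A14, rose with TM siATF4-3 and TM siATF4-2 (1.37 ± 0.09, adjusted p = 1.58e-14, and 1.16 ± 0.09, adjusted p = 1.51e-12). Its rise was smaller with TM siPERK-3 (0.48 ± 0.09, adjusted p = 0.000162) and TM siPERK-1 (0.47 ± 0.09, adjusted p = 0.000204).

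In the list of heme breakdown, transport and sensing, 6 of 13 genes rose and 4 fell with tunicamycin (34.3% and 34.7% of all genes), and 3 rose and 7 fell with TM siATF4-3 (31.2% and 30.7% of all genes). FLVCR2, reported as a heme transporter, held 23.7 ± 2.36 CPM in TM siCtrl cells and 4.23 ± 0.704 CPM in DMSO siCtrl cells (SD, n = 4 each), a log2 change of 2.48 ± 0.10 (adjusted p = 3.05e-23). It fell by 2.42 ± 0.11 on the log2 scale with TM siATF4-3 (adjusted p = 4.61e-21) and by 1.52 ± 0.10 with TM siATF4-2 (adjusted p = 4.28e-16). Smaller falls were seen with TM siPERK-3 (-0.80 ± 0.09, adjusted p = 1.14e-08) and TM siPERK-1 (-0.71 ± 0.09, adjusted p = 8.12e-08). BLVRB, a biliverdin reductase that acts downstream of heme oxygenase, fell with TM siATF4-3 and TM siATF4-2 too (-1.64 ± 0.10 and -1.31 ± 0.10). So did SLC48A1, which brings heme out of endosomes (-1.14 ± 0.07 and -0.96 ± 0.07). BLVRB was also lower with TM siPERK-1 (-0.43 ± 0.10), and SLC48A1 with TM siPERK-3 (-0.49 ± 0.07) and TM PERKi siCtrl (-0.21 ± 0.06). In the heme synthesis list, 2 of 11 genes rose and 5 fell with tunicamycin, against the same shares of all genes: ALAS1, the first enzyme of the pathway, rose (0.55 ± 0.05, adjusted p = 5e-13), and the late enzymes CPOX (-0.80 ± 0.06) and PPOX (-0.56 ± 0.08) fell. FECH, which inserts iron into the ring, fell with TM siATF4-3 (-0.61 ± 0.04, adjusted p = 1.79e-15) and TM siATF4-2 (-0.47 ± 0.04, adjusted p = 7.22e-12).

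Of the iron export and control list only 5 of 10 genes could be tested, since HAMP, HFE2, TMPRSS6, CP and FTMT had at most 15 counts in any library. FBXL5, part of the ligase that degrades the IREB2 protein when iron is plentiful, held 108 ± 3.83 CPM in TM siCtrl cells and 75.9 ± 4.49 CPM in DMSO siCtrl cells (SD, n = 4 each, log2 change 0.51 ± 0.05, adjusted p = 4.11e-11). It fell against TM siCtrl with TM siATF4-3 (-0.59 ± 0.05), TM siATF4-2 (-0.40 ± 0.05), TM siPERK-3 (-0.39 ± 0.05) and TM siPERK-1 (-0.25 ± 0.05). Of the iron-sulfur cluster list, 4 of 28 rose and 12 fell with tunicamycin (34.3% and 34.7% of all genes). ISCU, the scaffold on which clusters are built, rose with tunicamycin (1.21 ± 0.06, adjusted p = 6.76e-21) and fell with TM siATF4-3 (-1.45 ± 0.06, adjusted p = 6.43e-22) and TM siATF4-2 (-0.96 ± 0.06, adjusted p = 1.71e-16). It fell by less with TM siPERK-3 (-0.45 ± 0.06, adjusted p = 1.49e-07) and TM siPERK-1 (-0.32 ± 0.06, adjusted p = 6.12e-05). CISD2 rose with tunicamycin (1.53 ± 0.06), as did the chaperone HSPA9 (0.94 ± 0.05). With the ATF4 siRNAs, 11 of the 28 rose and 6 fell with TM siATF4-3 (31.2% and 30.7% of all genes), and 14 rose and 4 fell with TM siATF4-2 (28.4% and 27.2% of all genes).

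**Figure D5:**
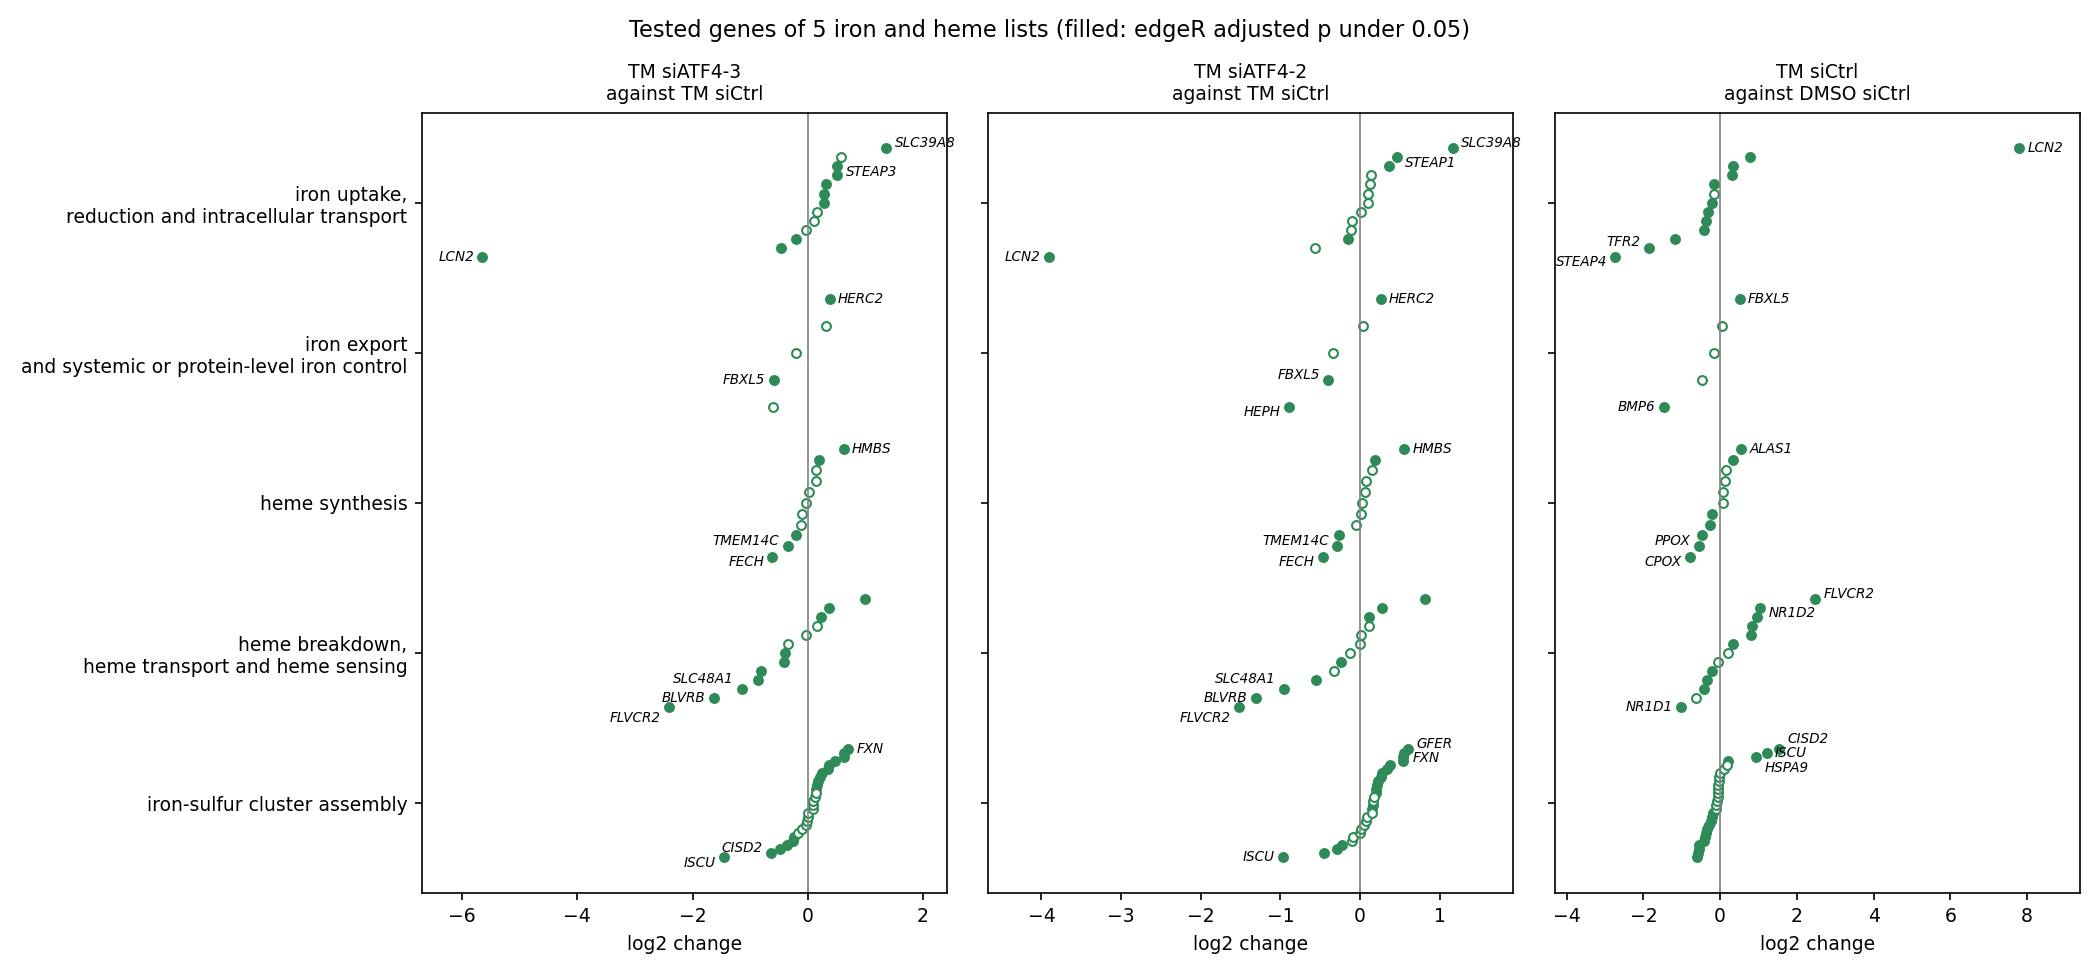
Log2 change of each tested gene of 5 lists, in 3 comparisons, each panel on its own scale. Filled points are called at an adjusted p under 0.05 by edgeR and open points are not, and labels give the genes named by rule. FLVCR2 lies at 2.48 with tunicamycin and at -2.42 with TM siATF4-3, and LCN2 is the outermost point of each panel, at -5.65 with TM siATF4-3.

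Across the 28 libraries the profiles of FTH1 and HMOX1 ran together (Pearson r = 0.891), which describes libraries that share groups, and after group means were taken out r was 0.248. Among 12033 genes with enough signal, those most like FTH1 over the 28 libraries were VEGFA (r = 0.986), PSENEN (0.983) and RNF187 (0.979). Those most like HMOX1 were CD55 (0.964), DCTN1 (0.961) and HOPX (0.959). For SLC39A14 they were SEC31A (0.987), IBTK (0.985) and MIS12 (0.982), and for TFRC they were ULK3 (0.957), C21orf33 (0.957) and BDH1 (0.949).

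Promoters, from RefSeq on GRCh38, were searched on both strands over the 250 bases before each start for 7 of the 10 genes. The 50 bases after the start were not searched, and sites outside the windows or with other letters would be missed. FTH1, HMOX1 and SLC39A14 were not in that table. The ATF4-C/EBP composite letters TGATGNAAN occur in 3.13% of 35116 promoters and the antioxidant response letters TGACNNNGC in 10.9%, and neither is in the windows of FTL, TFRC, SLC40A1, SLC11A2, NCOA4, IREB2 or ACO1. The shorter letters TGACG, in 21.2% of promoters, are found once each for TFRC and SLC40A1.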

How the data were processed

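RNA of LNCaP cells was sequenced as strand-specific TruSeq libraries, per the labels' protocols. Reads were aligned to hg19 with TopHat2 2.1.0 and assigned to exons with featureCounts 1.5.0-p1, per the submitters' processing notes, which also name DESeq2 1.10.1. The values the authors deposited are raw counts per gene in 6 tables of 25370 lines, of which 1 line has no name and 0 counts and was left out; the 20 columns recurring between tables hold equal values. Neither the annotation nor the strand setting of the counting is named in the labels, notes or headers.

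All 28 libraries were fitted together with edgeR 4.0.16 (R 4.3.3; TMM factors, genes with a minimum count of 10 in enough libraries and 15 in all, robust quasi-likelihood test), with Benjamini-Hochberg adjustment over 14314 genes in each of 15 comparisons. CPM are TMM-scaled, and RPKM are CPM per kilobase of counted exon. The self-test on simulated counts recovered set changes. Alternatives were DESeq2 1.42.0 size factors and Wald test, upper-quartile scaling, no filter, a replicate block, limma 3.58.1 voom, the compared groups only, and leaving out each library. Intervals are 95% intervals of the log2 change. The 10 genes and the 5 lists were chosen with earlier results of these data known. From each list and comparison at most the 3 called genes of largest absolute log2 change are named, as are the 3 genes most like each of the 4 most variable genes (Pearson correlation, mean log2 CPM of at least 1). LCN2 counts were added because its DMSO counts are near 0.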

Additional observations from a re-analysis of the deposited data

Results flagged for a closer look

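Of 70 sets of 4 libraries (10 genes in 7 groups), 8 hold a library that stands apart from the other 3 of its group by Dixon's criterion for 4 values; chance alone marks about 1 in 20. Replicate 4 is the library apart in 5 of the 8. FTL reached 264.6 CPM in TM PERKi siCtrl replicate 4, where the others held 210.3 to 218.9 CPM. HMOX1 was 14.41 CPM in TM siATF4-2 replicate 4, beside 12.46 to 12.77 CPM. TFRC was 300.1 CPM in TM siPERK-1 replicate 4, beside 232 to 237.3 CPM, and 294 CPM in TM siATF4-2 replicate 4, beside 219.1 to 227.9 CPM. NCOA4 was 172.7 CPM in DMSO siCtrl replicate 4, beside 189.5 to 191.9 CPM.

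The other 3 were SLC11A2 at 147.8 CPM in TM siCtrl replicate 1 (154.8 to 155.2 CPM in the rest), NCOA4 at 220.7 CPM in TM siCtrl replicate 2 (204 to 205 CPM) and IREB2 at 100.9 CPM in TM siPERK-1 replicate 3 (111.6 to 113.3 CPM). The source of these gaps was not tested.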

How the results depend on the processing

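For the 10 genes in 15 comparisons, 2370 values were recomputed under alternatives. Of these, 2240 kept direction and side of the threshold, 55 lost a call and 36 gained one. The other 39, in 16 results, took the opposite sign with no call on either side. Their log2 changes were at most 0.19 in size in the main analysis and at most 0.10 under the alternative. Under the replicate block, genes called between TM siPERK-1 and TM siPERK-3 came to 1195, against 677 without it. Of the 10 genes the block called 3 there, against 1, and 5 between TM siATF4-2 and TM siATF4-3, against 3. Over all 15 comparisons it gained 9 calls of the 10 genes and lost 1. Among these, it called TFRC lower with TM PERKi siCtrl than with TM siCtrl (-0.18, adjusted p = 0.00192) and FTL lower with TM siCtrl than with DMSO siCtrl (-0.11, adjusted p = 0.0197). Libraries of 1 number correlated at -0.00509 to 0.302 after group means were removed (median 0.0866 over 84 pairs, 31 over 0.1), against a median of -0.0263 for libraries of different numbers. Since not every pair passed 0.1 and no label ties a number to a shared day or culture, the block was kept as an alternative. In 13 of 21 pairs of groups every library correlated best with its own number, a hint from the data and not from the design.

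Leaving out 1 library at a time gave 392 to 627 genes called between TM siPERK-1 and TM siPERK-3, with 0 to 2 of the 10 genes, and 3 to 5 of the 10 genes called between TM siPERK-1 and TM siCtrl. The cause of these shifts was not tested. Scaling moved the median log2 change of all genes by at most 0.0399 and the share of calls that were higher by at most 12.7 percentage points, between the PERK oligos. SLC40A1, with at most 57 counts a library, is limited by depth.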
